A study of Mus musculus with 6 samples.

Results

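The 10 genes described here encode chemokines, and they were taken by name from a table of 54532 mouse genes: Ccl2, Ccl5, Ccl7, Ccl8, Ccl9, Ccl11 and Ccl20 of the CC family, and Cxcl9, Cxcl10 and Cxcl16 of the CXC family. The cells were immortalized cardiosphere-derived cells (iCDCs) of the C57BL/6 mouse, grown out of the ventricle epicardium and kept dividing by a lentiviral human telomerase gene under puromycin selection, so that both groups carried this transgene. RNA was sequenced from 3 control libraries of iCDCs at passage 30 and from 3 induced libraries of iCDCs at passage 30 treated with 5-azacytidine, a cytidine analogue that lowers DNA methylation and is given to these cells to induce cardiac differentiation. Per the labels, treatment lasted 3 days at 10 µM and was followed by culture in IMDM with 2% serum for 4 weeks, while the methods of the study give another medium and a shorter time for differentiation. How the control cells were cultured before harvest is not given in the sources used here, and drug, serum and time in culture cannot be told apart.

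Chemokines are small secreted proteins that guide leukocytes by binding G protein-coupled receptors. In CC chemokines the leading cysteines of the mature protein are adjacent, and in CXC chemokines they are parted by a residue. Stromal and mesothelial cells of the heart are among their sources, and several of the genes stand next to each other in clusters that arose by duplication. Many of them are switched on by NF-kB downstream of tumour necrosis factor and interleukin-1, and Cxcl9 and Cxcl10 are classic targets of interferon through IRF factors.

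Total counts were 19041133 to 19823369 reads per library, and where a library showed 0 reads its true level could still reach 0.151 to 0.158 CPM, the count scaled to library size (a limit of 3 counts, for counting error only). The cells carried the transcripts of mesenchymal cells, with a summed level of 18563 to 22153 CPM for 6 fibroblast markers. Of 6 cardiomyocyte markers only Tnni3 had enough reads to be tested, and it did not pass (edgeR adjusted p 0.144). The 5 others had 4 reads over the control and 46 over the induced libraries, of which Ryr2 had 1 and 29 and Myh6 had 0 and 1. Of 13 leukocyte markers 7 had 0 reads in all 6 libraries, the pan-leukocyte gene Ptprc and the macrophage genes Adgre1, Itgam and Tyrobp among them. The summed level of the 13 was 27.6 to 30.5 CPM in control and 54.3 to 62.3 CPM in induced libraries, since Cd68, Fcer1g and Lyz2 were higher and Csf1r was lower in induced cells. Fcer1g passed the filter on low counts only through the induced libraries. The 6 endothelial markers summed to at most 0.405 CPM. Of 5 epicardial markers, all tested, 4 were higher and 1 was lower in induced cells (of all genes tested, 32.6% and 32.2%), and they summed to 373 to 387 CPM in control and 1234 to 1380 CPM in induced libraries. The part of these markers in the chemokine values was not tested.

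The regions just before the transcription start are shown for Cxcl10, for its neighbour Cxcl9 and for Ccl8. Cxcl10 had the largest rise among the chemokines tested, and Cxcl9 had a single read. Ccl8 rose slightly, with overlapping groups, in a cluster where Ccl2, Ccl7 and Ccl11 fell. Capitals mark matches to an interferon-stimulated response element (GAAA, any 2 bases, GAAA), an NF-kB-like element (GGG, any 3 bases, TTCC) or a TATA box (TATAAA), searched on both strands in the 250 bases before the start. The sequences are from RefSeq on GRCm38.p6, on the strand of the gene, and end at the base before the start, which was the start in the deposited table for each of them.
Cxcl10, chr5:92348890-92349139, minus strand: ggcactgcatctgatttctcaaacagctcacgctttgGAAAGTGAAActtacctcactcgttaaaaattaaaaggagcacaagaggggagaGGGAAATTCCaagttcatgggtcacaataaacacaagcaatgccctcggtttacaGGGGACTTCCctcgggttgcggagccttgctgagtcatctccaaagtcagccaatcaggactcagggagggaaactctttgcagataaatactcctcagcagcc
Cxcl9, chr5:92328080-92328329, minus strand: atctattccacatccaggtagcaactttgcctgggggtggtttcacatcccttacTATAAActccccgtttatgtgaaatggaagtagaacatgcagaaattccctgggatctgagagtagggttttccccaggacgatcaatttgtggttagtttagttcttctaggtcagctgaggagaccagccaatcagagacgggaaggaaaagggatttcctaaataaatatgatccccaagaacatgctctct
Ccl8, chr11:82114935-82115184, plus strand: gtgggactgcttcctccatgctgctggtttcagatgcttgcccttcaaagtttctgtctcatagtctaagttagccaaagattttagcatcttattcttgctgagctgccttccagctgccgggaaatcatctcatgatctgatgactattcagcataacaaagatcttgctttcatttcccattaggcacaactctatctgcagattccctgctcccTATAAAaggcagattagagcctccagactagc

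Sequences were matched for 5 of the 10 genes, the others being Ccl2, Ccl5, Ccl7, Ccl11 and Cxcl16. The interferon-type element occurred in the window of Cxcl10, from 213 to 204 bases before the start, and in 0 of the 4 others, against 2.98% of 32851 promoter windows. The NF-kB-like element occurred at 2 places in Cxcl10, starting 159 and 104 bases before the start, and at 1 place each in Ccl20 and Ccl9, against 4.65% of all windows. The letters of the TATA box occurred in Ccl8, from 32 to 27 bases before the start, and in Cxcl9 and Ccl9, against 12.4%. In Cxcl9 they began farther away, 195 bases before the start, and in Ccl9 the matches began 224, 94 and 92 bases before it. In Ccl9, a pair of matches to the TATA box on opposite strands overlap each other. The STAT-type element (TTC, any 3 bases, GAA) was in 0 of the 5 windows, against 7.02%. The windows held 1 CpG in Ccl8, 2 each in Ccl9 and Ccl20, 3 in Cxcl9 and 5 in Cxcl10, where the median over all windows was 6. A match is a description of the letters, and no binding or methylation was measured.

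The comparison asked how these chemokines differed between induced and control iCDCs. In induced cells the monocyte attractants Ccl2 and Ccl7 fell 2.52-fold and 2.32-fold, and the eotaxin Ccl11 fell too. Cxcl10, a ligand of the receptor Cxcr3 on T cells, rose by 8.58-fold from a low level, Ccl5 rose by 2.58-fold, and Cxcl16 and Ccl8 rose by 1.27-fold and 1.24-fold. Ccl9 did not pass the test, and Ccl20 and Cxcl9 had too few reads for it. When 14246 genes were tested with edgeR (quasi-likelihood) and Benjamini-Hochberg adjusted together, 7 of the 10 were past an adjusted p of 0.05, 4 higher and 3 lower in induced cells. Of all genes tested, 64.8% were past it, 32.6% higher and 32.2% lower, so that being called was common in these data. 8 of the 10 passed the filter on low counts. Of these Ccl5 and Ccl11, which are among the 7 called, passed it only through the group in which they were higher. The groups did not overlap for 6 of these 8, against 68.6% of all genes tested. In bulk RNA, fewer cells making a transcript and less of it per cell cannot be told apart.

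**Figure D1:**
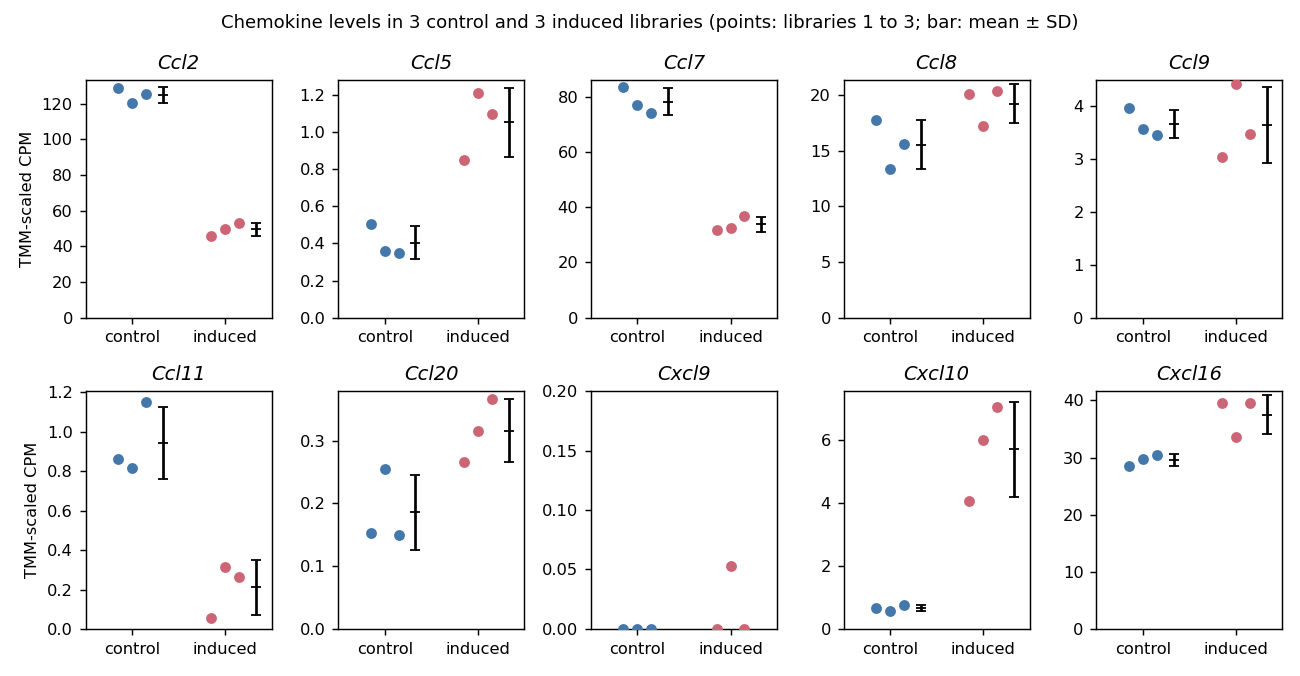
Level of each chemokine in TMM-scaled CPM (vertical axes, each starting at 0) in control (blue) and induced (red) libraries 1 to 3, with mean ± SD in black (none drawn for Cxcl9). The induced points lie below all control points for Ccl2, Ccl7 and Ccl11 and above all of them for Cxcl10, Ccl5, Cxcl16 and, by little and on few reads, Ccl20, while the groups overlap for Ccl8 and Ccl9.

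Ccl2 (ENSMUSG00000035385), monocyte chemoattractant protein-1 and a ligand of the receptor Ccr2, lies on chromosome 11, 82035571 to 82037453, plus strand. Levels were 129, 120.3 and 125 CPM in control libraries 1 to 3 and 45.6, 49.9 and 53.1 CPM in induced libraries 1 to 3. The 3 induced libraries lay far below the 3 control libraries, and the gap between the groups was larger than the spread within either. The log2 fold change was -1.33 (SE 0.06, edgeR adjusted p 9.84e-13).

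Ccl7, monocyte chemoattractant protein-3, lies next to it on chromosome 11, 82045712 to 82047525, plus strand, and shares the receptor Ccr2. Its level was 83.5, 77.0 and 73.9 CPM in control and 31.8, 32.4 and 36.8 CPM in induced libraries, with no overlap. This gave a log2 fold change of -1.21 (SE 0.07, edgeR adjusted p 1.28e-11). The ratio of Ccl2 to Ccl7 CPM was 1.60 ± 0.08 (SD, n = 3) in control and 1.47 ± 0.06 (SD, n = 3) in induced cells, and its ranges of 1.55 to 1.70 and 1.43 to 1.54 came close to each other without overlap. An exact two-sided permutation test of this ratio gave p 0.1, which is the smallest that 3 against 3 libraries allow.

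Ccl11, eotaxin-1, which attracts eosinophils through Ccr3, is the next gene on chromosome 11, 82057823 to 82062955, plus strand. It was a rare transcript, with 17, 16 and 23 reads in control and 1, 6 and 5 reads in induced libraries. All induced libraries lay below all control libraries, from 0.943 CPM in the mean of control to 0.210 CPM in the mean of induced cells. The fitted log2 fold change was -2.13 (SE 0.48, 95% interval -3.14 to -1.11, edgeR adjusted p 0.000805). Ccl11 passed the filter on low counts only through the control libraries, which tilts its test toward a fall, so that its p-value is a description only. With 56 reads in control and 12 in induced cells altogether, the size of the fall was less precise than those of Ccl2 and Ccl7.

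Ccl8, monocyte chemoattractant protein-2, is the last gene of the set in this cluster, at chromosome 11, 82115185 to 82116799, plus strand, and its TATA box is shown above. Its level was 17.7, 13.4 and 15.6 CPM in control and 20.1, 17.2 and 20.4 CPM in induced libraries. Induced library 2 lay below control library 1, so that the groups overlapped. The log2 fold change was 0.31 (SE 0.10, edgeR adjusted p 0.0158). The call was lost without control replicate 2 (0.21, adjusted p 0.111), without induced replicate 1 (0.27, adjusted p 0.0589) and without induced replicate 3 (0.27, adjusted p 0.0546), over a range of 0.00159 to 0.111 for its alternatives.

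Within this cluster of 6 genes, which spans 270.1 kb, the members did not move as a block. The ratio of Ccl8 to Ccl7 CPM was 0.199 ± 0.022 (SD, n = 3) in control and 0.572 ± 0.054 (SD, n = 3) in induced cells, and the ratio of Ccl8 to Ccl2 CPM was 0.124 ± 0.013 and 0.390 ± 0.049. The lowest induced library was above the highest control library in both ratios (exact permutation p 0.1 each, the smallest possible). Ccl12 and Ccl1, which are no members and lie beside Ccl8, had 0 reads in all libraries.

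Cxcl10, interferon-inducible protein 10, attracts activated T cells and natural killer cells through Cxcr3. It lies on chromosome 5, 92346638 to 92348889, minus strand, and its promoter window is the one above with the interferon-type and NF-kB-like letters. It had 13, 11 and 15 reads in control and 76, 114 and 134 reads in induced libraries, or 0.659, 0.561 and 0.751 CPM against 4.04, 6.00 and 7.02 CPM. All induced libraries lay far above all control libraries, and the induced libraries differed among themselves, with a coefficient of variation of 26.7% against 7.59% for Ccl2. Its log2 fold change was 3.10 (SE 0.27, 95% interval 2.54 to 3.66, edgeR adjusted p 8.84e-09). 5.9% of its exon bases overlap those of Art3 on the plus strand, which had 1 read in control and 33 in induced cells, and the strand setting of the counts is not given in the sources used here.

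Cxcl9, the monokine induced by interferon-gamma, shares the receptor Cxcr3 and lies 25.3 kb from Cxcl10 by their starts, at chromosome 5, 92321347 to 92328079, minus strand. It had 0 reads in all control libraries and 1 read, in induced library 2. The depth could not show a difference, and no fold is given. The third ligand of Cxcr3, Cxcl11, is no member of the set and had 0 reads in all 6 libraries, so that Cxcl10 was the one Cxcr3 ligand of this cluster with more than a single read.

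Ccl5, known as RANTES, attracts T cells and monocytes through Ccr1 and Ccr3 and is induced by both NF-kB and interferon regulatory factors. It lies on chromosome 11, 83525778 to 83530518, minus strand. It had 10, 7 and 7 reads in control and 16, 23 and 21 reads in induced libraries. The induced libraries all lay above the control libraries at 0.850, 1.21 and 1.10 CPM, against 0.507, 0.357 and 0.351 CPM. The log2 fold change was 1.37 (SE 0.37, 95% interval 0.58 to 2.15, edgeR adjusted p 0.00371). Ccl5 passed the filter on low counts only through the induced libraries, which tilts its test toward a rise, so that its p-value is a description only.

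Ccl9, macrophage inflammatory protein-1 gamma, a ligand of Ccr1 found in rodents, is the next chemokine gene on chromosome 11, 83572919 to 83578636, minus strand. Its level was 3.95, 3.57 and 3.46 CPM in control and 3.03, 4.42 and 3.46 CPM in induced libraries. The highest and the lowest of the 6 values were both those of induced libraries. The log2 fold change was -0.01 with a 95% interval of -0.40 to 0.38 (edgeR adjusted p 0.971), so that a change larger than this interval in either direction was not seen. Of the 50-base stretches of its transcripts, 1.97% also occur in transcripts of other genes.

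Cxcl16, made as a membrane-bound protein that binds Cxcr6 and is released as a soluble chemokine by the protease Adam10, lies on chromosome 11, 70453983 to 70459984, minus strand, outside both CC clusters. Its level was 28.5, 29.8 and 30.5 CPM in control and 39.5, 33.5 and 39.6 CPM in induced libraries, with no overlap. Its log2 fold change was 0.34 (SE 0.07, edgeR adjusted p 0.000487). 18.3% of its exon bases overlap those of Zmynd15 on the other strand, which fell from 203 to 110 reads (log2 fold change -0.82, edgeR adjusted p 0.0015).

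Ccl20, which attracts dendritic cells and Th17 cells through Ccr6, lies on chromosome 1, 83116766 to 83119167, plus strand. It had 3, 5 and 3 reads in control and 5, 6 and 7 reads in induced libraries, too few for the test. The ratio of pooled reads was 1.71 with a 95% exact binomial interval of 0.763 to 4.00, which includes 1.

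**Figure D2:**
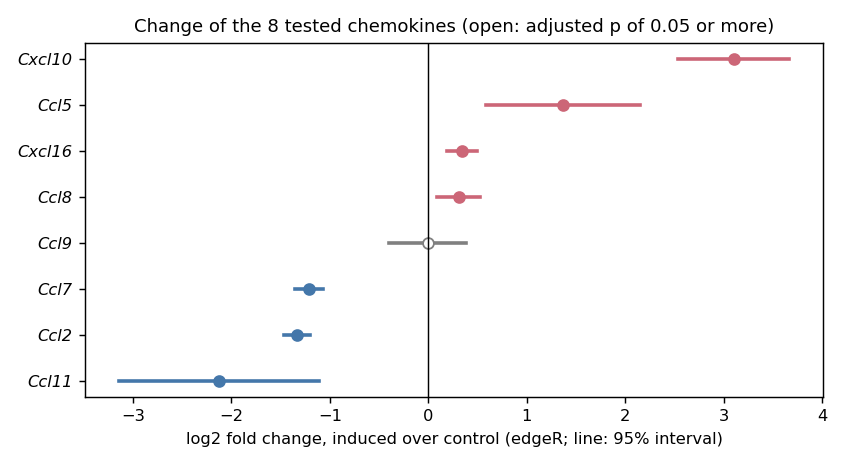
Log2 fold change of the 8 chemokines tested (points, induced over control, edgeR) with 95% intervals (lines); red is higher and blue is lower in induced cells at an adjusted p under 0.05, and the open point is Ccl9. The intervals of Ccl5 and Ccl11 are the widest, and those of Ccl2 and Ccl7 overlap each other.

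Levels of different genes were compared per length, in the deposited FPKM. In control cells Ccl2 led with 108.7 ± 3.99 FPKM (SD, n = 3), followed by Ccl7 with 96.6 ± 6.00, Ccl8 with 30.2 ± 4.28 and Cxcl16 with 9.70 ± 0.34 FPKM. Ccl9 followed with 1.19 ± 0.08 FPKM, and the remaining genes were below 1 FPKM in the mean, in the order Ccl11, Ccl5, Cxcl10, Ccl20 and Cxcl9. No neighbours in this order overlapped in control cells, although the lowest Ccl2 value, 104.5 FPKM, was close to the highest Ccl7 value, 103.2 FPKM.

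In induced cells the 3 leading genes came together, with 43.4 ± 3.29 FPKM for Ccl2, 42.0 ± 3.44 for Ccl7 and 37.6 ± 3.52 for Ccl8 (SD, n = 3). Ccl2 overlapped with Ccl7, and Ccl7 with Ccl8, so that the spread between libraries was as wide as these differences, although within each induced library the order was Ccl2, Ccl7 and Ccl8. Cxcl16 was next with 12.4 ± 1.17 FPKM. Cxcl10 moved from the eighth to the fifth place with 2.52 ± 0.67 FPKM, above Ccl9 with 1.19 ± 0.23 and Ccl5 with 1.10 ± 0.19 FPKM, which overlapped each other. Ccl20 and Ccl11 overlapped at 0.222 ± 0.036 and 0.194 ± 0.128 FPKM.

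The summed level per length of the 10 genes was 248 ± 12.8 FPKM in control and 140.7 ± 9.34 FPKM in induced cells (SD, n = 3). Ccl2 and Ccl7 made up 43.9% ± 0.97 and 38.9% ± 1.27 of this sum in control cells, and 30.9% ± 1.53 and 29.8% ± 0.60 in induced cells. The share of Ccl8 was 12.1% ± 1.15 in control and 26.7% ± 2.03 in induced cells, and that of Cxcl16 was 3.92% ± 0.31 and 8.82% ± 0.70. Cxcl10 made up 0.117% ± 0.017 and 1.78% ± 0.41. Despite the largest fold change among the members tested, Cxcl10 thus remained a small part of the chemokine transcripts. The homeostatic ligand Cxcl12 was at 2.58 to 2.80 times the sum of the 10 in control and at 1.24 to 1.36 times in induced libraries.

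**Figure D3:**
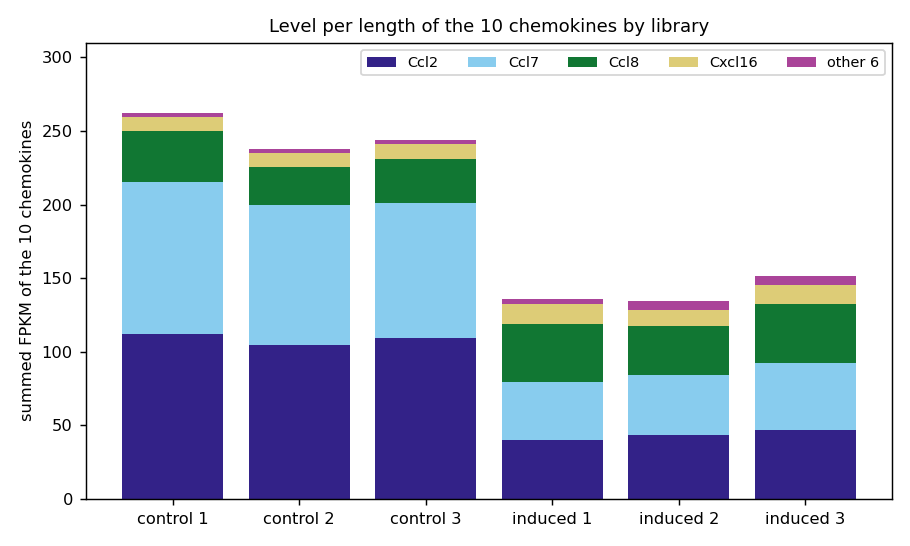
Deposited FPKM of the 10 chemokines stacked for each library (vertical axis, from 0), with Ccl2, Ccl7, Ccl8 and Cxcl16 shown apart and the remaining 6 summed. The bars reach 238 to 262 FPKM in control and 134 to 151 FPKM in induced libraries, and the Ccl8 part is about as tall as the Ccl2 and Ccl7 parts in induced libraries.

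The receptors through which these chemokines act had few reads. Of 10 receptor genes 2 were tested, and both were higher in induced cells by edgeR, where 32.6% of all genes tested were higher. Cxcr6, the receptor of Cxcl16, passed the filter on low counts only through the induced libraries, which tilts its test toward a rise. It had 14 reads over the control libraries and 78 over the induced ones, and its level was 0.237 ± 0.164 and 1.37 ± 0.55 CPM (SD, n = 3; log2 fold change 2.50, edgeR adjusted p 0.000234). The atypical receptor Ccrl2 was at 2.53 ± 0.89 and 4.32 ± 0.16 CPM (log2 fold change 0.77, edgeR adjusted p 0.00424). The 8 others had too few reads to be tested. Cxcr3, the receptor of Cxcl10, had 0 reads.

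Of 28 other chemokine ligands 12 were tested, and by edgeR 4 were higher and 5 lower in induced cells. Among all genes tested, 32.6% were higher and 32.2% lower. Of the 12, Ccl6, Cxcl1, Cxcl13 and Pf4 passed the filter on low counts only through their higher group. Cxcl5, Cxcl15 and Ccl28 reached it in 3 control libraries each, but in only 2, 1 and 1 induced libraries. They too passed it only through the control group, where they were higher. The median log2 fold change of the 12 was -0.31, against -0.01 over all genes tested. The neutrophil attractants Cxcl5 and Cxcl15 had log2 fold changes of -8.09 and -7.08 (edgeR adjusted p 4.54e-19 and 2.92e-15). The filter tilts both tests toward a fall, so that these p-values are a description only. Cxcl12 reached the filter in 3 control and 3 induced libraries and had a log2 fold change of -1.87 (edgeR adjusted p 1.67e-17).

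All 15 genes of interferon reception and signalling were tested, and 8 were higher and 3 lower (median log2 fold change 0.42). Of all genes tested, 32.6% were higher and 32.2% lower. In either direction 11 of the 15 were called, against 64.8% of all genes tested. Irf7, a transcription factor of the interferon response, rose from 2.90 ± 0.18 to 21.4 ± 1.70 CPM, and Stat2 from 30.5 ± 2.54 to 85.4 ± 7.74 CPM (SD, n = 3; edgeR adjusted p 2.45e-13 and 2.36e-12). Usp18, an interferon-induced brake on the receptor, rose from 0.471 ± 0.236 to 16.1 ± 3.11 CPM (edgeR adjusted p 1.60e-12). Usp18 reached the filter on low counts in 2 control and 3 induced libraries. It thus passed only through the induced group, which tilts its test toward a rise. In the same list the kinase Jak2 and the factor Irf1, named after their values were seen, had log2 fold changes of -1.21 and -0.51. The rise of Cxcl10 and Ccl5 was thus accompanied by higher transcripts of part of this list and lower transcripts of another part, and their link was not tested.

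All 22 genes of the NF-kB pathway were tested, and 6 were higher and 8 lower, with a median log2 fold change of -0.01. Il1r1, the receptor of interleukin-1, fell from 82.1 ± 4.69 to 31.2 ± 1.95 CPM, and the inhibitor Nfkbia, itself a target of NF-kB, fell from 51.5 ± 1.85 to 29.8 ± 2.80 CPM (SD, n = 3; edgeR adjusted p 7.91e-13 and 9.51e-09). The ubiquitin ligase Traf6 had a log2 fold change of 0.64 (edgeR adjusted p 1.24e-06). The share of genes called in this list, 14 of 22, was near the 64.8% of all genes tested.

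**Figure D4:**
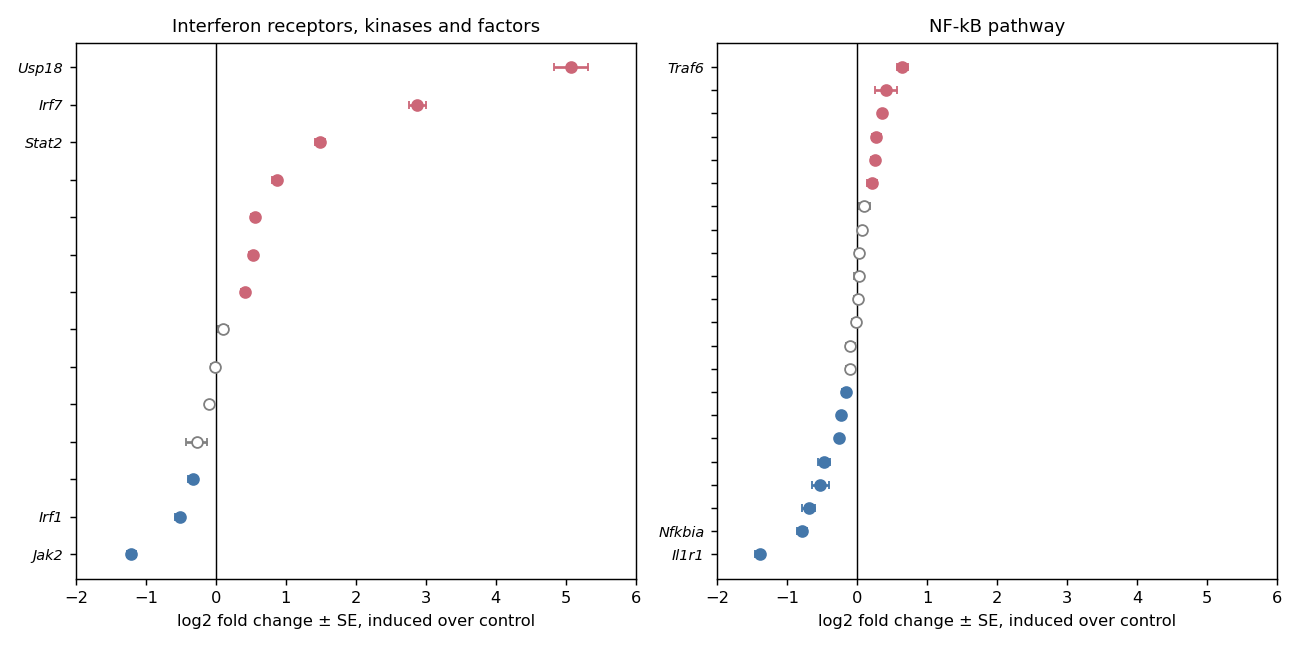
Log2 fold change ± SE (horizontal axis, induced over control, edgeR) of 14 of the 15 interferon signalling genes (left) and 22 NF-kB pathway genes (right), with the genes named in the text labelled; filled points are past an adjusted p of 0.05, red higher and blue lower in induced cells, and open points are not. The interferon genes run from -1.21 for Jak2 to 5.08 for Usp18, and the NF-kB genes from -1.39 for Il1r1 to 0.64 for Traf6.

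Most cytokines that induce these chemokines had few reads or none. Of 10 such genes Il6 and Il4 were tested and 0 were called by edgeR (0 at an unadjusted p under 0.05, and 0 by DESeq2), with log2 fold changes of -0.36 and -0.04 (edgeR adjusted p 0.112 and 0.921). Ifnb1, Ifng, Tnf, Il1a, Il1b, Il17a, Lta and Il13 had 4 reads (control) and 11 reads (induced) between them. Of 11 proteases that cut chemokines or their inhibitors, 10 were tested, 6 were higher and 2 lower, where 32.6% and 32.2% of all genes tested were higher and lower. Dpp4, which trims the amino terminus of Cxcl10 and other chemokines, rose from 2.24 ± 0.27 to 13.2 ± 0.88 CPM (SD, n = 3; edgeR adjusted p 1.62e-11). Timp3, an inhibitor of such proteases, and Mmp3 had log2 fold changes of 2.03 and 0.72 (edgeR adjusted p 3.86e-17 and 7.78e-11). Of 8 proteins that bind AU-rich or stem-loop elements of mRNA, 7 were lower and 0 higher, where 32.2% of all genes tested were lower. Hnrnpd, Khsrp and Zc3h12a had log2 fold changes of -0.74, -0.45 and -0.64 (edgeR adjusted p 1.34e-09, 1.20e-07 and 2.29e-06).

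The gene profiles most like each chemokine over the 6 libraries were also listed, by the Pearson correlation of log2 CPM. For Cxcl10 they were Eif2ak2, the double-stranded RNA-activated kinase, and Gm12250 (r = 0.9992 and 0.9985). For Ccl2 Zfp532 was among them. The names were for Ccl7 Ubap2 and Usp10, for Ccl5 Pde4b and Commd8, for Ccl11 Apool and Dck, for Cxcl16 Retreg3 and Dctn2, for Ccl8 Uros and Elmo3, and for Ccl9 Gm5422 and AC110534.5. The libraries share their groups, and 3207 genes had an r above 0.9 with Cxcl10 and 61 with Ccl9, so that these names are a description only.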

How the data were processed

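RNA was sequenced from 3 control and 3 induced libraries, grouped by their titles. The authors deposited raw read counts per gene and library, and FPKM values scaled to transcript length and library size. The submitters' processing notes name HISAT2 2.0.5, featureCounts 1.5.0-p3, DESeq2 1.16.1 and mm10; strand and annotation release are not given in the sources used here. The deposited fold changes, p-values and Gene Ontology tables are the authors' own comparisons and were not used. Coordinates are those of the deposited table, and those of the 10 chemokines equal GENCODE M21 (GRCm38). The labels name separate samples but not separate cultures, so that p-values measure the spread between these samples.

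Counts were filtered in edgeR 4.0.16 (R 4.3.3) by filterByExpr (minimum count 10, minimum total 15), scaled by TMM and tested with the two-sided quasi-likelihood test, with Benjamini-Hochberg adjustment over 14246 genes and a prior count of 0.125. SEs were derived by dividing the fold change by the root of F. The script was tested on simulated data. Replicates differed beyond sampling noise (chi-square per degree of freedom 2.56 to 8.91). The chemokines and gene lists were chosen with earlier results of these data known; from each list, up to 3 tested genes with the smallest p are named, and for each chemokine the 2 genes of at least 1 CPM with the highest correlation. Some genes that these rules name are not reported here. Lists are given by counts and medians, without a set test. Alternatives were DESeq2 1.42.0, other scalings and filters, limma 3.58.1 on FPKM, a threshold of 0.01, leave-one-out fits and a replicate block.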

Additional observations from a re-analysis of the deposited data

How the results depend on the processing

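Of 118 fold changes of the 8 tested chemokines under the alternatives, 109 kept their direction and their side of the threshold. Those of Ccl2, Ccl5, Ccl7, Ccl11, Cxcl10 and Cxcl16 did so under each alternative that gave a value. The call of Ccl8 was lost at an adjusted p of 0.01 (0.31) and when 1 of 3 libraries was left out. The leave-one-out values of Ccl8 were 0.21 to 0.42. Ccl9, which was not called, changed sign under DESeq2 (0.0022), median-ratio size factors (0.0019) and without control replicate 1 (0.055), induced replicate 1 (0.11) or induced replicate 3 (0.035), over a leave-one-out range of -0.17 to 0.11. The stricter filter left out Ccl5 and Ccl11. With it 1 receptor gene was called in place of 2, because fewer genes were tested. Among cytokine inducers, leaving out one library gave 0 to 1 called, the 1 without induced replicate 3. The other counts of genes called stayed within 1.5 times their value. Limma on log2(FPKM + 1) shrank the log2 fold changes of low genes, to 1.43 for Cxcl10, 0.56 for Ccl5 and -0.64 for Ccl11. Scaling by library totals shifted the median of all genes tested by -0.04. Pairing by replicate number was not seen: same-numbered libraries deviated with correlations of -0.03, -0.03 and 0.03. With the replicate block 9063 genes were called, against 9225, and no call among the 10 chemokines changed. At this depth, differences in Ccl20 and Cxcl9 were not detectable.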

Other observations

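Among the chemokine genes outside the set, 1 neighbour of Ccl9 stood out, and it is named here after its values were seen. Ccl6, which lies on chromosome 11, 83587882 to 83593087, next to Ccl9 on the same strand, had 0, 0 and 3 reads in control and 253, 216 and 290 reads in induced libraries. The ratio of pooled reads was 263.7, with a 95% exact binomial interval of 89.9 to 1282 that covers counting error only. All 3 control reads came from control library 3, so that no ratio can be given without it. Ccl9 had 217 and 207 reads in the same libraries, so that adjacent genes of this cluster differed in their response, while Ccl3 and Ccl4 farther along had 0 reads in all libraries.

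Chosen in the same way, Cxcl13, an attractant of B cells, had 4 control and 97 induced reads, and the membrane-bound Cx3cl1 was at 48.0 ± 0.28 CPM in control and 66.9 ± 1.48 CPM after induction (SD, n = 3; difference of 0.48 on the log2 scale, edgeR adjusted p 1.95e-07). Cd68, a lysosomal protein abundant in macrophages, was at 1.95 ± 0.22 in control and 29.2 ± 2.77 CPM after induction (SD, n = 3), as Lyz2 was at 3.76 ± 0.64 and 14.6 ± 1.25 CPM. Fcer1g had 2 control and 187 induced reads, and the macrophage genes Adgre1, Itgam and Tyrobp had 0. Other markers of the same list went the other way. Csf1r was at 22.6 ± 1.05 CPM in control and 10.9 ± 0.67 CPM after induction (SD, n = 3), and Laptm5 had 7 control and 0 induced reads.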
